A study of Mus musculus with 4 samples.

Results

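The cells described here are the endothelial cells, the lining cells of vessels, found among GFP+ mouse lung cells by single-cell RNA sequencing: 138 of 10077 cells. They were chosen by their own transcripts. A cell was taken when Pecam1, Cdh5, Egfl7, Ramp2 and Cldn5 together had at least 4 UMIs (unique molecular identifiers, each standing for a captured transcript), when it had no UMI of the leukocyte gene Ptprc, and when Sftpc, which encodes surfactant protein C, made up less than 6% of its UMIs. A cell with at least 3 UMIs of Ccl21a, Mmrn1 and Reln together was called lymphatic, which gave 4 lymphatic and 134 blood vessel cells. Because the members were selected on these values, levels of endothelial against other cells, and of lymphatic against blood vessel cells, are a description with no test.

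The series compared lung cells after pneumonectomy (PNX, removal of part of the lung) with cells of sham-treated mice, in Cdc42 AT2 null and control mice, with 1 library per group. The null mice were Sftpc-CreER; Cdc42flox/-; Rosa26-mTmG and the control mice Sftpc-CreER; Cdc42flox/+; Rosa26-mTmG. Every library thus carried the Cre driver, the reporter and 1 floxed Cdc42 allele, and every mouse was given 4 doses of tamoxifen. The other Cdc42 allele was - in null mice and + in control mice in every cell, vessel cells among them. After digestion of the lungs with neutral protease and DNase, live GFP+ cells were sorted for 10x 3′ libraries, on day 21 in the PNX groups, and all 4 libraries are labelled postnatal day 80. Null PNX had 2370 cells, null sham 3344, control PNX 2252 and control sham 2111. The Sftpc promoter drives Cre in alveolar type II (AT2) cells, which make surfactant, and the sort kept GFP+ cells, so endothelial cells were neither the cell type the driver targets nor the cell type on the labels. No reporter gene was among the 17117 genes, so GFP of the members was not measured, and the labels do not state the number of mice behind a library. With 1 library per group, each comparison between libraries below compares 2 libraries, has no replicate and gives no p-value. Null PNX held 24897537 UMIs, null sham 17828596, control PNX 11233796 and control sham 9868802. All intervals are 95%, exact, and cover counting error only, and a ratio in parentheses is followed by its interval.

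Lung endothelium forms arteries, a dense capillary bed around the alveoli, veins and lymphatic vessels. The capillary bed holds general capillary cells, marked by Gpihbp1, which anchors lipoprotein lipase, and by Plvap, which builds the diaphragms of caveolae, and the thin aerocytes, marked by Car4, carbonic anhydrase 4, and by Ednrb. Vwf, the von Willebrand factor of platelet adhesion, marks larger vessels, and Ccl21a, a chemokine that guides dendritic cells and T cells, marks lymphatic vessels. VEGF receptors, the Tie receptors, Notch and the BMP receptor ALK1 control vessel growth and identity, and KLF2 and KLF4 are transcription factors that blood flow induces. After PNX, capillary endothelium is known to release factors that act on the alveolar epithelium.

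Of the selection genes, Pecam1 (chr11:106654217-106750628 in mm10) and Cdh5 (chr8:104101625-104144511) encode adhesion molecules of endothelial junctions, Cldn5 (chr16:18776847-18778262) a tight junction claudin, Ramp2 (chr11:101246028-101259546) the partner of the adrenomedullin receptor, and Egfl7 (chr2:26580014-26593120) a secreted vessel protein. Cldn5 had 3159.8 CPM (UMIs of the gene per 1000000 UMIs summed over the cells) in endothelial cells, against 3.34 CPM in the other 9939 cells. Ramp2 had 2881 CPM in endothelial cells and 4.84 CPM in other cells, Egfl7 1345 and 18.6, Cdh5 830 and 1.53, and Pecam1 778 and 4.51. Egfl7 was the selection gene with the highest level outside the endothelial cells. The gene bodies are those of the GENCODE annotation of mm10.

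The promoters of 4 vessel genes are shown, Egfl7 and Cldn5 of the selection, and Tie1 and Eng. All 4 genes were higher in endothelial than in other cells, Egfl7 and Cldn5 by the selection. The letters AGGAAG, a core that ETS family factors such as Erg and Fli1 bind, were searched in them on both strands. These 4 are examples and do not stand for all promoters counted below. Each run is 300 bases, 250 before and 50 after the gene's start in RefSeq (GRCm38.p6), 5′ to 3′ on the gene's strand, with AGGAAG or its reverse complement in capitals and, in Tie1, also CGGAAG, a related core.
Egfl7, chr2:26580833-26581132, plus strand: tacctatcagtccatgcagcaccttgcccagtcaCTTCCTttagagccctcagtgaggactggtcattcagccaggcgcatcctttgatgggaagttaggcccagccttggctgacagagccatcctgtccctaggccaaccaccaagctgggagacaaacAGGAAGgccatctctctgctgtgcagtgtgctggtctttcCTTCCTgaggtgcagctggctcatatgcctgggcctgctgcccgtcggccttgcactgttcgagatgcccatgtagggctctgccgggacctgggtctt
Tie1, chr4:118489800-118490099, minus strand: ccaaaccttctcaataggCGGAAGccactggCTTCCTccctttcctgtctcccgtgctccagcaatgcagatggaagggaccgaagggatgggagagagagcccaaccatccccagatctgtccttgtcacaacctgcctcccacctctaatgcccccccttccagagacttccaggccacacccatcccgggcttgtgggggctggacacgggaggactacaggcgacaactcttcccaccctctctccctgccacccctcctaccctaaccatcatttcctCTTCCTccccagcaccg
Eng, chr2:32646345-32646644, plus strand: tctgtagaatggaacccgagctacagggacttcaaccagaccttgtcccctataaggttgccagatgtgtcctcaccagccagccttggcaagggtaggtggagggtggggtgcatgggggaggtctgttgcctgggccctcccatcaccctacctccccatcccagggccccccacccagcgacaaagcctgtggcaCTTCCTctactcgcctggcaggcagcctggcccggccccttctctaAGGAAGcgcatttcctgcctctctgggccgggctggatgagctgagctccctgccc
Cldn5, chr16:18776597-18776896, plus strand: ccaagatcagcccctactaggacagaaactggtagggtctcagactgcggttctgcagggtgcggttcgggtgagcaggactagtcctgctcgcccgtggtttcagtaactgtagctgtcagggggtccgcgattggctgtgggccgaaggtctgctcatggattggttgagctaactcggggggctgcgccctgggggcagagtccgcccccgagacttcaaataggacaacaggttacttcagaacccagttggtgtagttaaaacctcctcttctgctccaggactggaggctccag
Egfl7 held 3 AGGAAG matches, Tie1 2 and Eng 2, while Cldn5, the selection gene with the highest level, held none in this window. Of 50 endothelial genes looked up, 23 had a promoter in the table, and 16 of these 23 (69.6%) held AGGAAG, against 9498 of all 27025 promoters (35.1%). CGGAAG was in 2 of the 23 (8.70%) and in 17.2% of all promoters. The cores differ in their first base, and AGGAAG or CGGAAG was in 46.4% of all promoters. The letters were chosen with these results known, and a match is not a binding site.

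Not every member carried the label well. Of the 138 cells, 96 had UMIs of all 5 selection genes and 5 had UMIs of only 1. In 4 null PNX cells, Msln, Upk3b, Wt1 and Lrrn4, which mark mesothelium, the lining of the lung's surface, together had 9, 19, 113 and 126 UMIs, and Dcn, a fibroblast proteoglycan, had 90 to 251. These 4 cells held 10910 to 32150 UMIs each, had 3 to 11 UMIs of Ramp2, none of Cdh5, Egfl7 or Cldn5 and 1 of Pecam1 in all, and the other 134 members had 0 UMIs of the 4 mesothelial genes. In 10 further cells, 9 of null sham and 1 of control PNX, Sftpc made up 3% or more of the UMIs. Leaving out the 11 cells with fewer than 2 selection UMIs per 1000 and these 10, 18 cells in all, 120 cells were kept: 6 in null PNX, 51 in null sham, 22 in control PNX and 41 in control sham. These limits were chosen after the values had been seen.

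In the 120 kept cells the selection genes had a median of 13.5 UMIs per 1000, with a range of 2.74 to 26.5, and 92 of them had UMIs of all 5 genes. Sftpc made up a median of 0.624% of their UMIs, and the highest Dcn count of a kept cell was 1. A kept null sham cell, later placed in the Gpihbp1 or Plvap group, had 28 UMIs of the mural genes, such as Acta2 and Pdgfrb. It also had 10 UMIs of the fibroblast genes. Epcam, Cdh1 and Cldn18, epithelial junction genes, had at least 1 UMI in 22 kept cells and at most 2 in any of them. Lymphocytes, taken as cells with a Ptprc UMI, at least 2 UMIs of Cd3e, Cd3d, Cd3g, Cd79a, Cd79b and Ms4a1 together and Sftpc below 6%, do not make surfactant. The 294 lymphocytes had by library a median Sftpc share of 0.515% in null PNX, 0.404% in null sham, 0.418% in control PNX and 0.773% in control sham, and kept endothelial cells 0.524%, 0.508%, 0.599% and 0.998% in the same libraries. Both sets had an upper limit on Sftpc in their selection, 3% in the kept cells and 6% in the lymphocytes, so these medians describe cells chosen to hold little of it. Just inside the selection limit lay 8 cells with 4 or 5 selection UMIs, with 0.124 to 2.51 per 1000, and just outside it 9 cells with 3 UMIs, with 0.105 to 1.58 per 1000. A Ptprc UMI alone left out 5 cells and Sftpc alone 11. Doublets were not called, and 54 barcode sequences occurred in more than 1 library, 1 of them in a member.

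**Figure D1:**
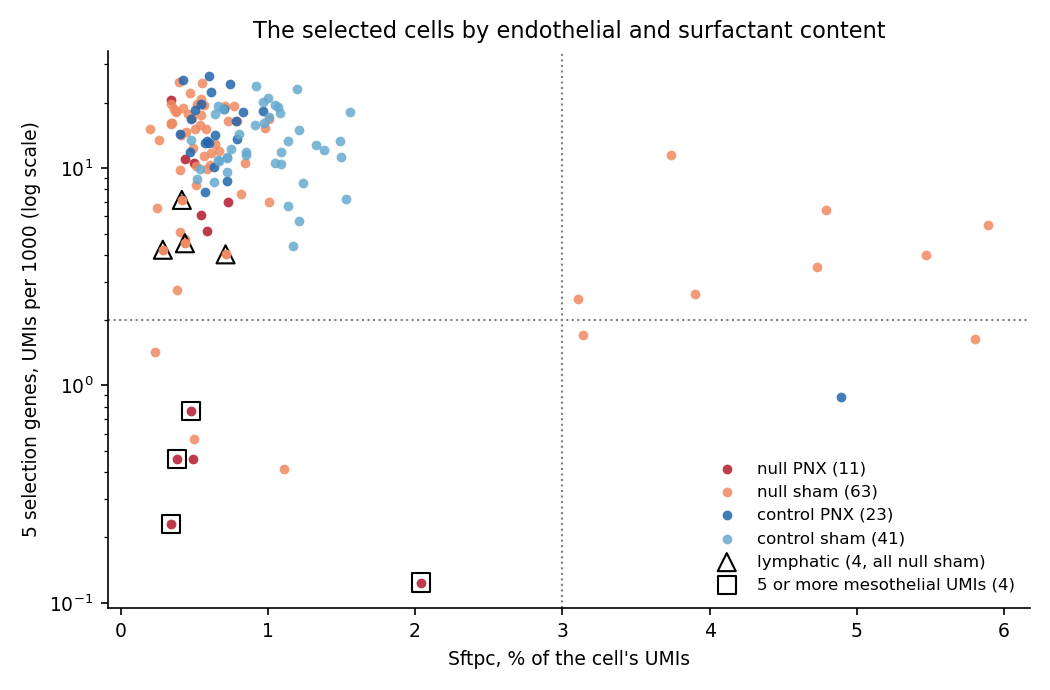
Each point is 1 of the 138 selected cells, with Sftpc as a percentage of its UMIs on the x axis and UMIs of the 5 selection genes per 1000 on a log y axis; colours give the library, triangles the 4 lymphatic cells and squares the 4 null PNX cells with mesothelial genes. The dotted lines at 3% and at 2 per 1000 bound the 120 kept cells at the upper left.

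Endothelial cells were 11 of 2370 cells in null PNX (0.464%, 0.232 to 0.829), 63 of 3344 in null sham (1.88%, 1.45 to 2.40), 23 of 2252 in control PNX (1.02%, 0.648 to 1.53) and 41 of 2111 in control sham (1.94%, 1.40 to 2.63). The kept cells were 0.253%, 1.53%, 0.977% and 1.94% of the same libraries. The order of the shares, from the lowest, was null PNX, control PNX, null sham and control sham, and the interval of control PNX overlapped those of the other 3 libraries, while that of null PNX lay below those of both sham libraries. The lowest UMI count that a library retained differed, with 2669 in null PNX, 1379 in null sham, 1171 in control PNX and 691 in control sham. Endothelial cells were shallow, with medians of 6225, 2220, 1941 and 1400 UMIs against 9726, 4883, 4734 and 4568 in the other cells of these libraries. The kept cells had medians of 3742, 2034, 1916 and 1400 UMIs in the same order. Among cells with at least 2669 UMIs the shares were 0.464% in null PNX, 0.857% in null sham, 0.357% in control PNX and 0.0588% in control sham. The kept cells at this depth were 0.253% in null PNX, 0.306% in control PNX and 0.0588% in control sham, and 14 of 2800 cells in null sham. In both sets the order of the libraries changed, with control sham now lowest and null sham highest. Null PNX lay above control PNX with all selected cells and below it with the kept cells. The intervals of these 2 kept shares overlapped (0.0930 to 0.550 and 0.112 to 0.665). Shares of endothelial cells moved with the depth limit, whose part in the differences was not tested.

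Across 7168 genes with at least 20 CPM in either set, 2097 were more than 2-fold higher in endothelial cells than in all other cells with an interval that left out 1 (29.3%), and 583 were lower (8.13%). These genes are called higher and lower below. Among the 120 kept cells, 34.0% of 7211 genes were higher and 11.5% lower. Of 28 pan-endothelial genes tested, none of them used in the selection, 27 were higher, with a median log2 ratio of 6.66, against a median of 0.53 over all genes tested. The exception was Crip2, at 1338 CPM in endothelial and 727 CPM in other cells, and it too was higher among the kept cells. Of the genes with the largest ratios, Sox18, a transcription factor of vessel development, had 284 CPM in endothelial and 0.252 CPM in other cells, a ratio of 1123, 665 to 2026. Emcn, an endothelial sialomucin, had 193 against 0.268 CPM (719-fold) and Clec14a, a surface lectin, 1041 against 1.45 CPM (717-fold). By library, Sox18 in the kept blood vessel cells had 209 CPM in null PNX, 342 CPM in null sham, 707 CPM in control PNX and 550 CPM in control sham, and Emcn 752 CPM in null PNX, 246 CPM in null sham, 303 CPM in control PNX and 267 CPM in control sham. Aqp1, a water channel, reached 2078 CPM, against 6.20 CPM in other cells.

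The lists that mark single vessel types were also higher, with 11 of 11 general capillary, 16 of 18 aerocyte, 16 of 17 artery and 12 of 14 vein genes higher and 1 vein gene lower. The transcription factors of the endothelial lineage followed the same pattern, with 27 of 28 tested genes higher. Sox17 (186 against 0.221 CPM) and Sox7 (125 against 0.221 CPM) joined Sox18. Foxf1, which lung mesenchyme also uses, had 592 CPM in endothelial and 1.01 CPM in other cells, and Tbx3 had 277 and 0.458 CPM. Klf2 had the highest level of the group at 1613 CPM, against 171 CPM, and Epas1, which encodes the hypoxia factor HIF-2 alpha, had 1293 against 173 CPM. Erg, at 38.6 against 0.126 CPM, had a large ratio (306) at a low level. Klf6 was not past 2-fold, with 288 against 197 CPM.

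The signalling lists of vessels came next. Of 9 VEGF genes tested, 7 were higher: the receptors Kdr (322 against 1.5 CPM), Flt1 (293 against 2.56 CPM) and Flt4 (56.7 against 0.174 CPM), the coreceptors Nrp1 and Nrp2, and the ligands Vegfc and Pgf, while Vegfa had 79.4 against 44.0 CPM and was not past 2-fold. Pgf rested on few cells, with 8 UMIs in 2 of the 4 lymphatic cells and 2 UMIs in 1 blood vessel cell. Among the kept cells Nrp2 had 4 UMIs, 14.7 CPM, which is under the 20 CPM limit for testing, and Vegfa, at 92.1 CPM, was higher. The angiopoietin receptor Tek had 315 against 0.789 CPM, its relative Tie1 245 against 0.552 CPM, and the phosphatase Ptprb, which acts on Tek, 594 against 1.29 CPM. Of 10 Notch genes tested, 8 were higher, among them the ligand Dll4 (107 against 1.15 CPM), the receptors Notch1 and Notch4, and the target Hey1 (193 against 0.852 CPM), and 1 was lower, Notch2 (4.54 against 31.8 CPM). Of 16 BMP and ALK1 genes tested, 10 were higher and 1, the receptor Bmpr1a, was lower. Acvrl1, which encodes ALK1, had 801 against 3.83 CPM, its coreceptor Eng 953 against 2.02 CPM, and Tmem100, a target of ALK1, 1753 against 3.00 CPM. The targets Id1 and Id3 had 794 and 1127 CPM in endothelial cells, against 40.4 and 22.5 CPM in other cells.

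Genes of vessel function were likewise higher as groups. Of 13 clotting and vessel tone genes tested, 8 were higher and 1, tissue factor F3 (15.9 against 113 CPM), was lower: Thbd, the thrombin receptor thrombomodulin, had 939 against 3.83 CPM, and Ace, angiotensin-converting enzyme, 835 against 6.56 CPM. Of 9 caveolae genes, 8 were higher, with Cav1 at 801 against 12.6 CPM. Of 19 angiocrine genes, those for factors that vessels give to neighbouring cells, 16 were higher, Egfl7 of the selection among them, and 1 was lower, Pdgfa, with Cxcl12 at 442 against 1.26 CPM, Sema3c at 588 against 18.9 CPM and Edn1, endothelin 1, at 254 against 6.55 CPM. All 12 MHC class I genes were higher, among them H2-D1 (7345 against 2104 CPM) and B2m (4666 against 1112 CPM), and 17 of 20 interferon-stimulated genes were higher, with Ifitm3 at 2876 against 129 CPM. MHC class II genes, which AT2 cells also express, were not higher: 1 of 7 was lower, H2-Aa (887 against 1985 CPM), and Cd74, the invariant chain, had 3214 against 6186 CPM. All 16 AT2 genes were lower, Sftpc by the selection, with a median log2 ratio of -2.00, or -3.64 among the kept cells. Of 9 leukocyte genes tested, all 9 were lower, and Ptprc was at 0 by the selection.

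The groups of other stromal cells depended on the members set aside. Of 8 fibroblast genes tested, 5 were higher over all 138 cells, Dcn among them (1347 against 32.1 CPM), while among the 120 kept cells 0 of 5 were higher and 4 were lower, with Dcn at 3.69 CPM. Of 6 mesothelial genes, 5 were higher over all members, and in the kept cells Msln, Upk3b, Wt1 and Lrrn4 had 0 UMIs, which allows up to 11.1 CPM. Of the cell cycle genes, 5 of 8 tested were higher over all members and 1 of 4, Stmn1, among the kept cells, which had 0 UMIs of Mki67, Top2a, Birc5, Ccnb1 and Cdk1. Of 16 immediate-early genes, 6 were higher over all members, beside 29.3% of all genes, and among the kept cells 5 were higher and 3 (Fos, Egr1 and Atf3) lower, beside 34.0% and 11.5% of all genes.

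**Figure D2:**
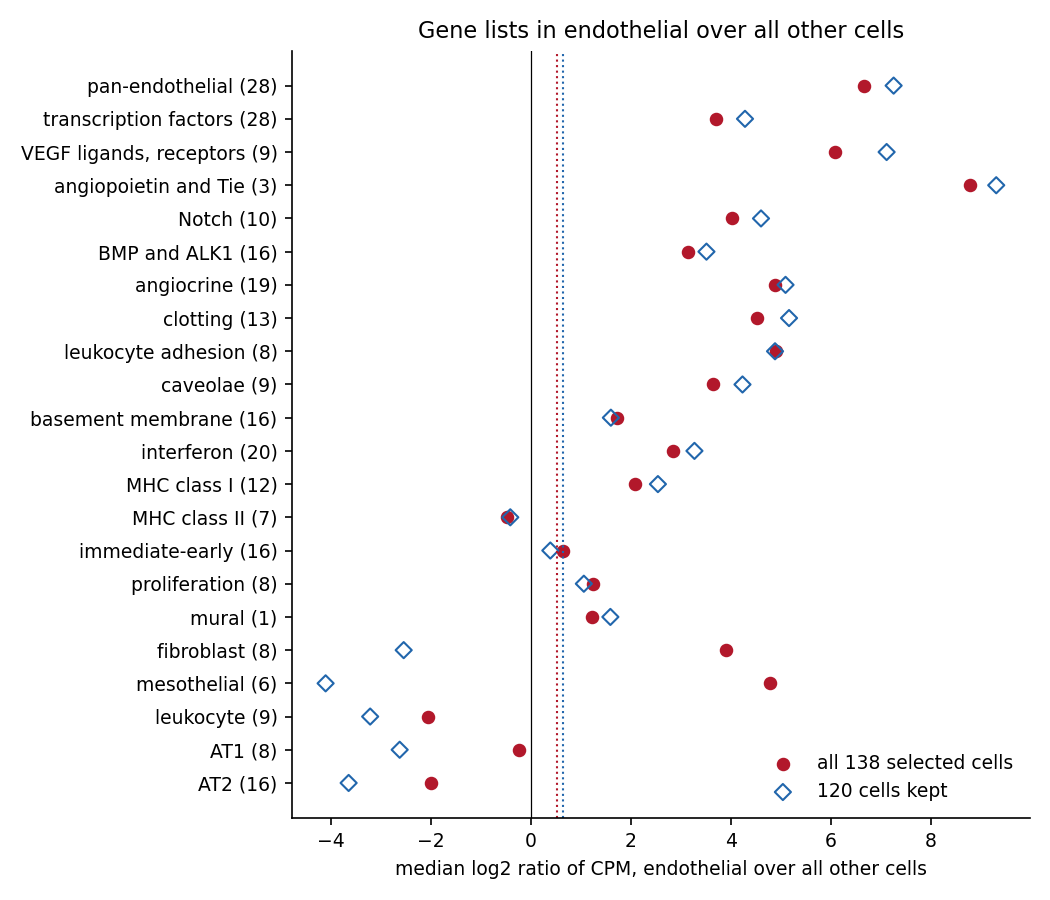
The median log2 ratio of CPM in endothelial over all other cells (x axis) is shown for 22 gene lists, with the number of genes tested in parentheses; filled circles use all 138 cells, open diamonds the 120 kept cells, and dotted lines the medians of all genes tested. The vessel lists lie far to the right, AT2 and leukocyte lists to the left, and fibroblast and mesothelial lists change side when the 18 cells are set aside.

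The 4 lymphatic cells all came from null sham and held 7543, 5228, 2243 and 1681 UMIs, 16695 in all. Ccl21a (chr4:42772860-42773993), which was used for the split, had 424, 348, 189 and 189 UMIs in them, 68883 CPM in all, and 0 UMIs in the blood vessel cells. Mmrn1 had 5, 14, 0 and 2 UMIs and Reln 4, 8, 2 and 2, also against 0 in the 134 blood vessel cells. Outside the endothelial cells, 1 cell had 3 or more UMIs of the 3 genes. Every lymphatic cell had at least 189 UMIs of Ccl21a and every blood vessel cell 0, so no cell lay near the limit of the split.

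Of 7421 genes tested, 309 were higher in the lymphatic cells (4.16%) and 122 lower (1.64%) than in the blood vessel cells. The lymphatic cells were all from null sham, but only 59 of the 134 blood vessel cells were. Differences between libraries can therefore enter these ratios. Of 28 lymphatic genes tested, those of the split left out, 18 were higher and 2 lower. Prox1, the transcription factor that sets lymphatic fate, had 3 UMIs in 1 cell, 1 in another and 0 in the remaining 2, against 0 in the blood vessel cells. With the blood vessel side set to 3 counts, the ratio of Prox1 was 33.9. Flt4, the receptor of VEGF-C, had 6, 2, 4 and 0 UMIs, 719 against 30.6 CPM, a ratio of 23.5, 9.78 to 55.7. Gng11, a G protein subunit, had 49, 29, 3 and 3 UMIs, 5031 against 311 CPM (16.2-fold). Maf, a transcription factor, had 898 against 33.0 CPM, Nr2f2, which acts with Prox1, 719 against 54.2 CPM, and Fxyd6, an ion pump regulator, 1557 against 16.5 CPM (94.4, 39.9 to 257), with 0 UMIs in the kept blood vessel cells. Timp3, a metalloproteinase inhibitor, had 2096 against 455 CPM, and the scavenger receptor Stab1 719 against 54.2 CPM. Lyve1, the hyaluronan receptor used as a lymphatic marker, had all its 12 UMIs in 1 of the 4 cells, and at 719 against 453 CPM it was not past 2-fold. The lower genes were Igfbp5 and Ctsh, and both depended on the members set aside: against the 116 kept blood vessel cells, where 328 of 7156 genes were higher (4.58%) and 135 lower (1.89%), 17 lymphatic genes were higher and 0 lower.

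The genes with the largest ratios included Thy1 (6 against 1 UMIs), the T-box factor Tbx1 (5 against 1) and the placental growth factor gene Pgf (8 against 2). Also among them were Pcsk6, a proprotein convertase (9 against 0), and the mannose receptor gene Mrc1 (5 against 0). With the 0 set to 3 counts, the ratios of Pcsk6 and Mrc1 were 76.2 and 42.3, and their intervals began at 50.1 and 23.3. Of the 20 largest ratios, 10 rested on 2 UMIs against 1, a ratio of 50.8 with an interval of 2.65 to 2998, and are not named. Capillary genes were low in the lymphatic cells: 7 of 11 general capillary genes and 5 of 18 aerocyte genes were lower and none was higher. Igfbp7, a secreted protein high in aerocytes, had 1 UMI, 59.9 against 2138 CPM, a ratio of 0.0280, 0.000708 to 0.156. Ly6c1 and Tmem100 had 0 UMIs, which allows up to 180 CPM, against 2239.8 and 1822 CPM in blood vessel cells. Cd74 had 120 against 3336 CPM (0.0359, 0.00434 to 0.130), and 3 of 7 MHC class II and 4 of 12 MHC class I genes were lower, or 8 of 12 MHC class I genes against the kept blood vessel cells. Of the selection genes, Pecam1, Cdh5 and Ramp2 were lower in the lymphatic cells, with Pecam1 at 299 against 797 CPM, and against the kept blood vessel cells Egfl7 and Cldn5 were lower as well.

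The 116 kept blood vessel cells were not uniform. With limits set after the values were seen, 12 cells with at least 2.5 UMIs of Car4 per 1000 were called Car4-high, 22 with at least 1.5 UMIs of Vwf per 1000 Vwf-high, and 76 of the rest had a UMI of Gpihbp1 or Plvap, which left 6. No cell had 2 or more UMIs of both Car4 and Vwf, although 24 cells had that many of Car4 and 28 of Vwf. Car4 ran from 3.19 to 10.8 per 1000 in the Car4-high cells and reached 2.19 elsewhere, with 6 cells between 1.5 and 3.5, and Vwf ran from 1.68 to 10.1 in the Vwf-high cells and reached 1.40 elsewhere, with 12 cells between 1 and 2. These groups are ranges of 1 gene each, and their levels of Car4, Vwf, Gpihbp1 and Plvap follow from these limits. In lymphocytes, with a median of 3172 UMIs, 0.340% of cells had a UMI of Car4 and as many one of Vwf, while of the kept blood vessel cells, with a median of 1868 UMIs, 26.7% had one of Car4 and 27.6% one of Vwf.

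Several aerocyte genes that the limits had not used were high in the Car4-high cells. Igfbp7 had 13471 CPM in the Car4-high cells, 212 CPM in the Vwf-high cells and 659 CPM in the Gpihbp1 or Plvap cells. Emp2, a membrane protein, had 3557 CPM in the Car4-high cells, 106 CPM in the Vwf-high cells and 122 CPM in the Gpihbp1 or Plvap cells. Ednrb, the endothelin receptor B, had 706 CPM in the Car4-high cells, 53.0 CPM in the Vwf-high cells and 0 CPM in the Gpihbp1 or Plvap cells, and it was seen in 8 of the 12 Car4-high cells and in none of the 76. Chst1, a sulfotransferase, and Fibin had 523 and 497 CPM in the Car4-high cells and 0 UMIs in the Vwf-high cells. Tbx2, Apln, Prx and Rprml were also highest there, Apln, the apelin ligand, with 340 CPM against 20.4 CPM in the Gpihbp1 or Plvap cells, whose Aplnr, its receptor, had 204 CPM and 0 UMIs in the Car4-high cells. Kdr, the VEGF receptor 2, had 1256 CPM in the Car4-high cells, 106 CPM in the Vwf-high cells and 245 CPM in the Gpihbp1 or Plvap cells, and Ly6c1 8919.7 CPM in the Car4-high cells, 1732 CPM in the Vwf-high cells and 2412 CPM in the Gpihbp1 or Plvap cells. Nckap5, on the same list, did not separate them, with 157 CPM in Car4-high and 156 CPM in Gpihbp1 or Plvap cells.

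In the Vwf-high cells some genes of the vein list and some of the artery list were high. Mgp, a matrix protein of arteries, had 78.5 CPM in the Car4-high cells, 2068 CPM in the Vwf-high cells and 27.2 CPM in the Gpihbp1 or Plvap cells, from 10 of the 22 Vwf-high cells. Prss23, a serine protease on the vein list, had 0 CPM in the Car4-high cells, 2563 CPM in the Vwf-high cells and 313 CPM in the Gpihbp1 or Plvap cells. Plac8 and Fbln5, on the artery list, had 1891 and 919 CPM in the Vwf-high cells, against 340 and 47.6 CPM in the Gpihbp1 or Plvap cells. Hey1, on the same list, went the other way, with 476 CPM in the Gpihbp1 or Plvap cells and 93.1 CPM in the other kept blood vessel cells. Bgn had 689 CPM in the Vwf-high cells and 74.7 CPM in the Gpihbp1 or Plvap cells, and Slc6a2, the noradrenaline transporter on the vein list, 477 and 47.6 CPM. Lyve1 had 105 CPM in the Car4-high cells, 1520.2 CPM in the Vwf-high cells and 571 CPM in the Gpihbp1 or Plvap cells, and the counting interval of the Vwf-high cells (1216 to 1877 CPM) overlapped that of the 4 lymphatic cells (371 to 1256 CPM). The venous genes Ackr1 and Selp were rare, in 2 Vwf-high cells each. With 22 cells, arterial and venous cells were not separated further.

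Kit, Cd93, Sema3c and Lpl of the general capillary list were highest in the Gpihbp1 or Plvap cells. Kit, the stem cell factor receptor, was seen in 25 of the 76 cells and in 0 of the Car4-high and Vwf-high cells. Cd93 had 26.2 CPM in the Car4-high cells, 389 CPM in the Vwf-high cells and 1298 CPM in the Gpihbp1 or Plvap cells, and Sema3c, a secreted semaphorin, 183 CPM in the Car4-high cells, 106 CPM in the Vwf-high cells and 1379 CPM in the Gpihbp1 or Plvap cells. Lpl, lipoprotein lipase, which Gpihbp1 holds, had 326 CPM in these cells and 0 UMIs in the Car4-high cells. Edn1 had 605 CPM here and 0 UMIs in the Car4-high cells, which held its receptor Ednrb. Of the MHC class II genes, Cd74 and H2-Aa were highest in this group: Cd74 had 262 CPM in the Car4-high cells, 1308 CPM in the Vwf-high cells and 5986 CPM in the Gpihbp1 or Plvap cells, and H2-Aa 78.5 CPM in the Car4-high cells, 442 CPM in the Vwf-high cells and 1474 CPM in the Gpihbp1 or Plvap cells. Of the selection genes, Egfl7 ranged between 1732 and 2289.8 CPM over the 3 groups and Cldn5 was lowest in the Vwf-high cells, at 2651 CPM.

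**Figure D3:**
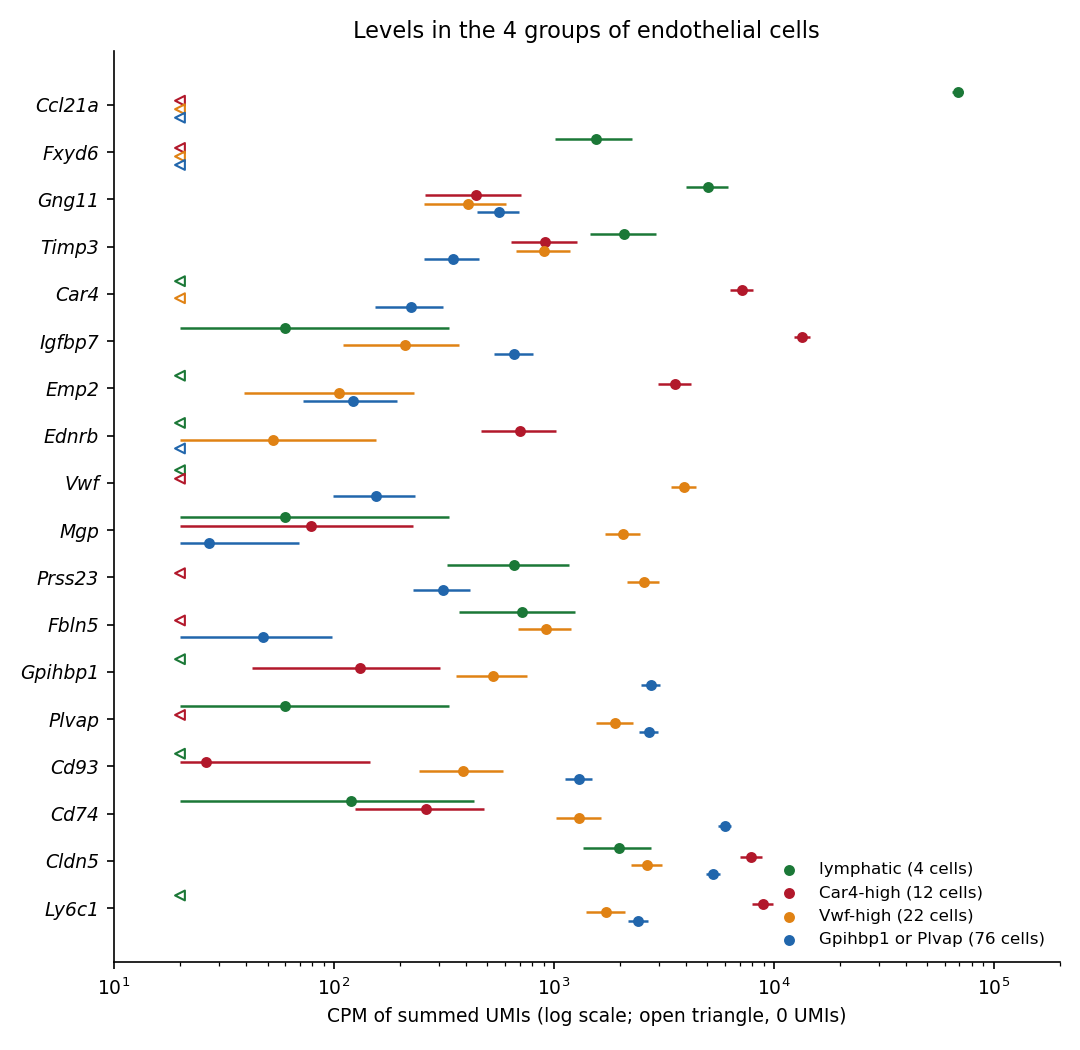
CPM on a log axis with 95% counting intervals is shown for 18 genes in the 4 lymphatic cells (green), 12 Car4-high cells (red), 22 Vwf-high cells (orange) and 76 Gpihbp1 or Plvap cells (blue); open triangles at 20 CPM mark 0 UMIs, and intervals are drawn down to 20 CPM. Ccl21a stands alone at 68883 CPM in the lymphatic cells, and Igfbp7, Emp2 and Ednrb in red, Mgp, Prss23 and Fbln5 in orange and Cd93 and Cd74 in blue lie to the right of the other blood vessel groups.

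The groups were spread unevenly over the libraries, so differences between libraries can enter the levels given above for the groups, Ly6c1 among them. Car4-high cells were 0 of 6 kept blood vessel cells in null PNX, 8 of 47 in null sham (17.0%, 7.65 to 30.8), 3 of 22 in control PNX (13.6%, 2.91 to 34.9) and 1 of 41 in control sham (2.44%, 0.0617 to 12.9). Vwf-high cells were 3 of 6 in null PNX, 6 of 47 in null sham (12.8%), 7 of 22 in control PNX (31.8%) and 6 of 41 in control sham (14.6%). The intervals of all libraries overlapped for both groups. With every cell thinned to 1000 UMIs, the Car4-high cells were 0, 8, 4 and 2 and the Vwf-high cells 3, 7, 5 and 6 in the same order of libraries.

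Null sham over control sham compares vessel cells of null and control mice without PNX. By genotype, deletion in AT2 cells and the second Cdc42 allele of the vessel cells themselves cannot be told apart here. In the kept blood vessel cells, 47 against 41, 101 of 7102 genes were higher in null sham (1.42%) and 133 lower (1.87%), and with all selected blood vessel cells 463 of 7484 genes passed in either direction (6.19%). Scn7a, a sodium channel gene, had 334 CPM in null PNX, 96.6 CPM in null sham, 505 CPM in control PNX and 579 CPM in control sham, a ratio of 0.167, 0.0770 to 0.332 for null sham over control sham, and UMIs in 7 of 47 against 20 of 41 cells. Null sham was the lowest of the 4 libraries, and Scn7a had 0 UMIs in lymphocytes, which allows up to 2.62 CPM. Efna1, an ephrin ligand, had 125 CPM in null PNX, 79.0 CPM in null sham, 141 CPM in control PNX and 490 CPM in control sham (0.161, 0.0679 to 0.344), so control sham was the highest of the 4 libraries. Klf2 had 3218 CPM in null PNX, 1580.5 CPM in null sham, 2728 CPM in control PNX and 3357 CPM in control sham (0.471, 0.385 to 0.575), with a median per cell of 1.32 UMIs per 1000 in null sham and 2.63 in control sham. Klf4 had 1170.3 CPM in null PNX, 509 CPM in null sham, 1030.4 CPM in control PNX and 1025 CPM in control sham (0.497, 0.344 to 0.715), and the phosphatase gene Dusp1 627 CPM in null PNX, 342 CPM in null sham, 869 CPM in control PNX and 1069 CPM in control sham (0.320, 0.211 to 0.479). Null sham was the lowest of the 4 libraries for all of Klf2, Klf4 and Dusp1, while the ranges over single cells overlapped.

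Of 28 transcription factors tested, 5 were lower in null sham (Klf2, Klf4, Ets1, Foxo1 and Hhex) and 1 higher, Sox7, with a median log2 ratio of -0.47, beside -0.11 over all genes. Of 10 Notch genes, 2 were lower: Notch1 at 96.6 against 282 CPM (0.342, 0.147 to 0.757) and the target Hes1 at 255 against 639 CPM (0.399, 0.240 to 0.653). Of 16 artery genes, 5 were lower, the gap junction genes Gja4 (351 against 743 CPM) and Gja5, Efnb2, Cxcl12 (404 against 891 CPM) and Fbln5, and Eln was higher (448 against 134 CPM). Among the higher genes, Ly6c1 had 3511 CPM in null PNX, 4882 CPM in null sham, 2263 CPM in control PNX and 1337 CPM in control sham (3.65, 2.92 to 4.62), and all 47 null sham cells had a UMI of it, against 31 of 41 control sham cells. Cyp1a1, the cytochrome that the aryl hydrocarbon receptor induces, had 83.6 CPM in null PNX, 957 CPM in null sham, 101 CPM in control PNX and 238 CPM in control sham (4.03, 2.37 to 7.29), and was seen in 35 of 47 null sham cells and at most 9 cells of any other library. Of 20 interferon-stimulated genes tested, 2 were higher, the GTPases Igtp (290 against 74.3 CPM) and Iigp1 (307 against 134 CPM). Of 18 aerocyte genes, 4 were higher, Car4, Fibin, Emp2 and Chst1, and Rprml was lower, beside 8 against 1 Car4-high cells. The cell with the most gave 44.8% of the Car4 UMIs of null sham and 63.4% of those of control sham. Dbp, a clock output gene, was 5.52-fold higher, 5.66-fold higher in the alveolar cells and 1.63-fold higher in the lymphocytes of the same 2 libraries, and Gm10116 was lower in endothelial cells, lymphocytes and alveolar cells alike.

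Within the Gpihbp1 or Plvap cells alone, 32 in null sham and 31 in control sham, the same genes had these levels. Scn7a had 28.4 CPM in null sham and 613 CPM in control sham, Klf2 1531 and 3210.0 CPM, Hes1 170 and 634 CPM, and Ly6c1 3473 and 1227 CPM. The differences in these 4 genes went the same way as over all kept cells. Alveolar cells here are those with Sftpc at 6% or more of their UMIs. In lymphocytes Klf2 had 1098 CPM in null sham and 1169 CPM in control sham, and in alveolar cells 74.5 and 22.6 CPM. Ly6c1 had 106 and 37.8 CPM in the lymphocytes of these 2 libraries. The Sftpc share was higher in control sham, as given above, and its part in these differences was not tested.

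Control PNX over control sham asks what differs in vessel cells on day 21 after PNX. In the kept blood vessel cells, 22 against 41, 112 of 8309 genes were higher in control PNX (1.35%) and 70 lower (0.842%), and with all selected blood vessel cells 192 of 6952 passed (2.76%). Of 7 genes of MHC class II antigen presentation tested, 6 were lower, with a median log2 ratio of -2.49, beside 0.44 over all genes. Cd74 had 2800.3 CPM in null PNX, 5804 CPM in null sham, 748 CPM in control PNX and 3104 CPM in control sham, a ratio of 0.241, 0.165 to 0.343 for control PNX over control sham. H2-Ab1 had 794 CPM in null PNX, 1308 CPM in null sham, 222 CPM in control PNX and 1352 CPM in control sham (0.164, 0.0793 to 0.308), and H2-Aa 836 CPM in null PNX, 1431 CPM in null sham, 182 CPM in control PNX and 802 CPM in control sham (0.227, 0.0984 to 0.463). Control PNX was the lowest library for all 3 genes, and UMIs of H2-Aa were seen in 5 of 6 cells in null PNX, 38 of 47 in null sham, 6 of 22 in control PNX and 23 of 41 in control sham. Within the Gpihbp1 or Plvap cells Cd74 had 6087 CPM in null PNX, 8832 CPM in null sham, 1366 CPM in control PNX and 3803 CPM in control sham, so control PNX was the lowest library there too. Null PNX had only 2 such cells, with 41 and 3 UMIs of Cd74. In lymphocytes H2-Ab1 had 303 CPM in control PNX and 942 CPM in control sham, and in alveolar cells 1158 and 961 CPM, and whether free RNA took part was not tested. The lymphocytes were chosen in part by the B cell genes Cd79a, Cd79b and Ms4a1. B cells can express H2-Ab1 themselves, so the lymphocyte level does not measure free RNA.

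Of 18 aerocyte genes tested, 6 were higher in control PNX and none was lower, with a median log2 ratio of 0.97, beside 0.44 over all genes. Igfbp7 had 293 CPM in null PNX, 2757 CPM in null sham, 4909.6 CPM in control PNX and 1441 CPM in control sham (3.41, 2.68 to 4.36), Car4 0 CPM in null PNX, 1528 CPM in null sham, 2020.4 CPM in control PNX and 609 CPM in control sham (3.32, 2.29 to 4.90) and Kdr 83.6 CPM in null PNX, 334 CPM in null sham, 889 CPM in control PNX and 297 CPM in control sham (2.99, 1.73 to 5.36). Prx, Ednrb and Chst1 were the other 3. These levels stood beside 3 Car4-high cells of 22 in control PNX and 1 of 41 in control sham, and the cell with the most gave 41.0% of the Car4 UMIs of control PNX and 63.4% of those of control sham, and for Igfbp7 31.7% and 53.6%. Within the Gpihbp1 or Plvap cells, 11 and 31, Igfbp7 had 1561 CPM in control PNX and 470 CPM in control sham, Kdr 634 and 143 CPM, and Car4 439 and 245 CPM with overlapping counting intervals. Of 11 general capillary genes, 3 were lower, Gpihbp1 (1051 against 2109 CPM), Aplnr and Tek (323 against 698 CPM). Eln, elastin, was higher (566 against 134 CPM, 4.23, 1.94 to 10.2), with 35.7% of its control PNX UMIs in 1 cell, and so was Pdgfb, which recruits pericytes (263 against 74.3 CPM). No Notch gene was higher and Hes1 was lower, at 303 against 639 CPM. Hspa1a, an inducible heat shock chaperone gene, had the largest ratio of the genes that passed the rule for naming, with 384 against 29.7 CPM (12.9, 3.12 to 114), and 31.6% of its control PNX UMIs were in 1 cell. Its ratio was 0.318 in lymphocytes and 3.94 in alveolar cells of the same libraries. No cell cycle gene of the 5 tested passed in either direction.

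**Figure D4:**
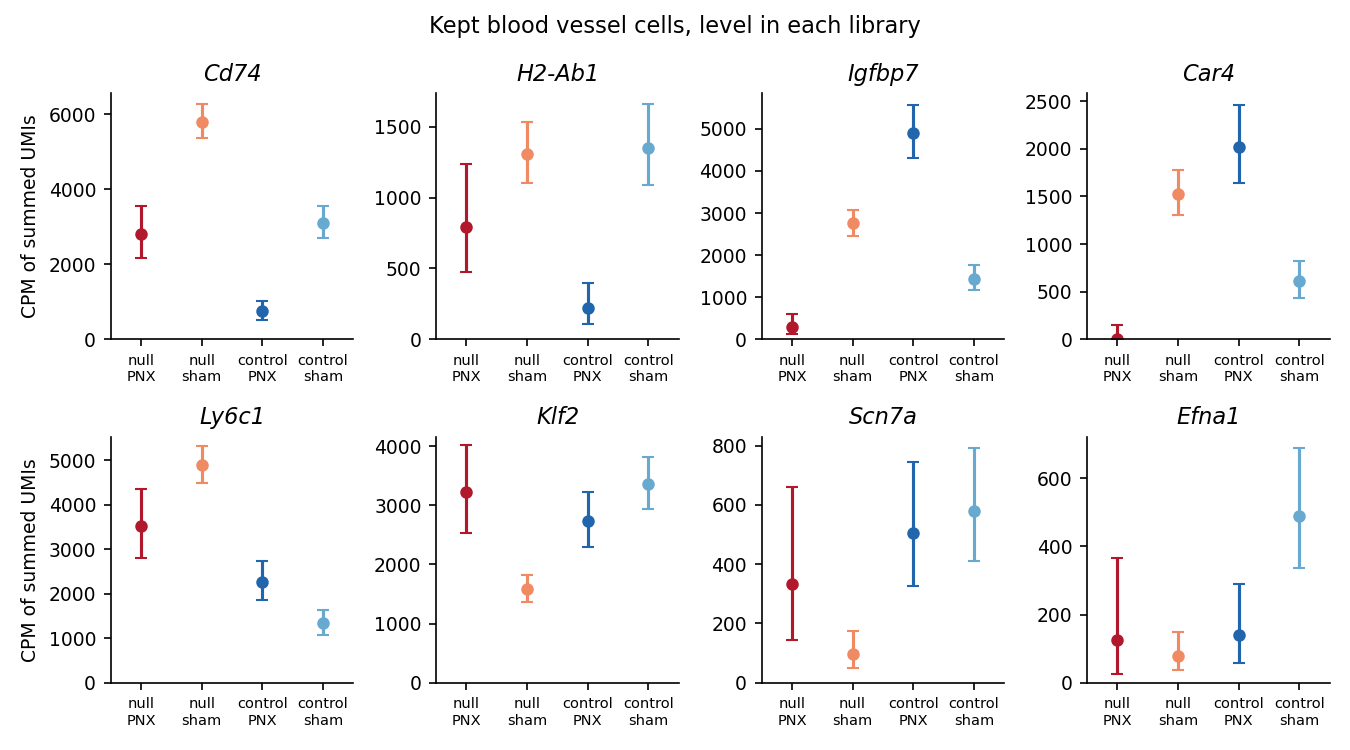
Each panel shows 1 gene's CPM (y axis, from 0) over the kept blood vessel cells of null PNX (6 cells), null sham (47), control PNX (22) and control sham (41), with 95% counting intervals as bars. Cd74 and H2-Ab1 are lowest in control PNX, Igfbp7 and Car4 are highest there and lowest in null PNX, Car4 at 0, Scn7a and Klf2 are lowest in null sham, Ly6c1 is highest in null sham and Efna1 is highest in control sham.

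Null PNX held 6 kept blood vessel cells with 23926 UMIs in all, so single cells weigh much in its values. Against null sham, 189 of 7277 genes were higher (2.60%) and 82 lower (1.13%), and against control PNX 113 of 8513 were higher (1.33%) and 71 lower (0.834%). With all 11 selected cells, the 4 with mesothelial genes among them, 1146 of 7640 genes passed against null sham (15.0%) and 910 of 7236 against control PNX (12.6%). Of 18 aerocyte genes, none was higher in either comparison, 7 were lower against null sham and 11 against control PNX. Car4 had 0 UMIs in null PNX, which allows up to 125 CPM, and Igfbp7 had 293 CPM, against 2757 CPM in null sham (0.106, 0.0423 to 0.221) and 4909.6 CPM in control PNX (0.0596, 0.0237 to 0.125). Kdr had 83.6 CPM in null PNX, against 334 CPM in null sham and 889 CPM in control PNX. No Car4-high cell was among the 6, a share whose interval reaches 45.9%, and the part of this makeup in the aerocyte genes was not tested. The median log2 ratio of the aerocyte genes was -2.75 against null sham and -2.89 against control PNX, and with genes at 0 set to their bound -0.67 and -1.53, beside medians of 0.38 and -0.17 over all genes tested, or 0.67 and 1.05 at the bound.

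Of 18 artery genes tested against null sham, 8 were higher and 1, Hey1, lower. Cxcl12, the ligand of CXCR4, had 1714 CPM in null PNX, against 404 CPM in null sham (4.24, 2.72 to 6.61), Plac8 2257 against 386 CPM, Mgp 1170.3 against 272 CPM and Fbln5 794 against 70.2 CPM, with 63.2% of the Fbln5 UMIs in 1 cell. Of these, Cxcl12, Plac8 and Fbln5 were also higher against control PNX. Vwf-high cells were 3 of the 6 in null PNX and 6 of 47 in null sham, and the part of this makeup was not tested. The median log2 ratio of the artery genes against null sham was 1.40, beside 0.38 over all genes. Against null sham, 6 of 12 MHC class I genes were lower, with B2m at 4096 against 8245 CPM. The null sham library had the highest H2-D1 of the 4, with 7858 CPM in null PNX, 14005 CPM in null sham, 7819 CPM in control PNX and 7426 CPM in control sham, although 0 of the 12 genes passed in null sham over control sham, and 1 was lower in null PNX than in control PNX. Klf2 and Klf4 were higher in null PNX than in null sham, at 3218 against 1580.5 CPM and 1170.3 against 509 CPM. Against control PNX, 4 of 6 MHC class II genes were higher, with Cd74 at 2800.3 against 748 CPM (3.75, 2.47 to 5.76). The null PNX cell with the most gave 61.2% of the Cd74 UMIs of that library, and for H2-Aa 65% and for H2-Ab1 42.1%. These values thus rest largely on single cells.

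Cdc42 (chr4:137319696-137357720), the small GTPase that organises actin and cell polarity and whose deletion was aimed at AT2 cells, was expressed in the blood vessel cells of every library, with 836 CPM in null PNX, 544 CPM in null sham, 626 CPM in control PNX and 312 CPM in control sham. The counting intervals of null PNX (511 to 1291 CPM) and control sham (193 to 477 CPM) did not overlap, and the lowest library was a control. Lymphocytes had 685, 434, 455 and 583 CPM in the same libraries, and alveolar cells 331, 245, 218 and 185 CPM. The labels do not say which exons the floxed sequence covers, and a 3′ tag outside it does not report the deletion. By genotype all cells of the null mice also carried the - allele of Cdc42, whose part in these levels was not tested.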

How the data were processed

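The deposited table holds raw counts of UMIs per gene and cell for 4 libraries of GFP+ lung cells, made with 10x 3′ chemistry. Per the submitters' processing notes, Cell Ranger 2.1.0, Seurat 2.3.4 and mm10 were used, and the labels do not state the authors' filters on cells. Groups were taken from the labels. UMIs were summed over the cells of a set and given as CPM, and ratios of CPM have exact conditional binomial 95% intervals, levels exact Poisson and shares Clopper-Pearson intervals, which cover counting error only. Genes needed 20 CPM in either set. Past 2-fold with an interval that leaves out 1, a gene was called higher or lower, with a side of 0 UMIs set to 3 counts. Log2 medians use 0.5 added counts. No test across libraries could be made with 1 library per group. Members and gene lists were chosen with earlier results of these data known. Genes that may be named are those of the lists and those with extreme ratios among genes with a UMI in at least 25% of the cells of the higher side: the 25 largest in endothelial cells and the 20 largest and smallest in lymphatic cells, at 100 CPM or more, and the 10 largest and smallest between libraries, at 200 CPM or more. The code was tested on simulated data. Python 3.11.15, numpy 2.4.6, scipy 1.17.1 and pandas 2.3.3 were used.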

Additional observations from a re-analysis of the deposited data

Results flagged for a closer look

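Among the genes of the lists, the named genes and some others, 4 genes went opposite ways with PNX in the null and the control libraries. Each was called with all selected blood vessel cells and again with the kept ones, whose ratios are given here. Such genes were not counted among all genes tested. The difference between the null and control ratios was not tested, since each ratio compares 2 single libraries, and null PNX held 6 cells. Igfbp7 had a ratio of 0.106 for null PNX over null sham and of 3.41 for control PNX over control sham. Car4, at 0 UMIs in null PNX and so set to 3 counts, had 0.0821 and 3.32 in the same comparisons, and Kdr 0.251 and 2.99. These 3 are aerocyte genes, and the Car4-high cells, rich in them, were 0 of 6 in null PNX, 8 of 47 in null sham, 3 of 22 in control PNX and 1 of 41 in control sham. In null sham the cell with the most gave 44.8% of the Car4 UMIs, and for Igfbp7 29.0%. Apoe, an apolipoprotein gene, went the other way, with 4.08 for null PNX over null sham and 0.170 for control PNX over control sham, and a single control sham cell gave 54.2% of the Apoe UMIs there.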

How the results depend on the processing

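Of 119 alternative values, 98 lay within 1.5 times the reported count or within the 95% counting interval of the reported share, and 21 moved beyond that; for the moved ones the cause was not tested beyond what the setting itself changes. The intervals are wide for few cells: the null PNX share was 0.464% as reported and 0.253% for the kept cells, and the Car4-high share of control sham 2.44% and, thinned to 1000 UMIs, 4.88%. Leaving out cells under 2000 UMIs and thinning the rest to 2000 UMIs, both at once, gave 59 endothelial cells, and keeping only cells at the null PNX minimum depth left 43, against 138. The share in null sham was then 1.00% and 0.857%, in control PNX 0.526% and 0.357%, and in control sham 0.588% and 0.0588%. Of the 2680 genes called between endothelial and other cells, 1623 passed 3-fold and 729 passed with at least 100 CPM, and leaving out a library gave 2419 to 3106. Leaving out a library other than null sham gave 432 to 439 genes between lymphatic and blood vessel cells, and without null sham no lymphatic cell was left. For null sham over control sham, 463 genes became 269 at 3-fold, 200 without members with 1% or more Sftpc, 234 in the kept cells and 162 in the kept Gpihbp1 or Plvap cells. For control PNX over control sham, 192 became 116 at 3-fold and 90 in the kept Gpihbp1 or Plvap cells. For null PNX over null sham, 1146 became 730 with at least 100 CPM, 271 in the kept cells and 144 in the kept Gpihbp1 or Plvap cells, and for null PNX over control PNX, 910 became 184 and 67 in these last sets. The kept cells, the groups by Car4 and Vwf and the depth minimum were chosen after seeing the data. No paired analysis was possible because each group holds 1 library.

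With 1 library per group, no difference between libraries can be told apart from a difference between mice, sorts or runs. Null PNX rests on 6 kept cells and the lymphatic values on 4 cells. Control sham cells were the shallowest, with a median of 1400 UMIs.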
